A study of Homo sapiens with 4 samples.

Results

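Kinesins are motor proteins that hydrolyse ATP to move along microtubules or to shorten them. The genes described here are the 42 protein-coding genes, of 58812 genes listed in the deposited counts, whose symbol has the form KIF with a number or KIFC with a number. By role they were divided into 9 mitotic kinesins, 6 other kinesins of cell division, 15 transport kinesins and 12 kinesins of the cilium, of microtubule growth or of less settled function. CENPE, a kinesin of the kinetochore, has a symbol of another form and is described among the partner genes. The direction of movement, the cargo and the time of expression differ between families: mitotic kinesins build the spindle, align chromosomes and complete cytokinesis, and their mRNAs typically peak in G2 and M phase, whereas transport kinesins carry organelles and vesicles throughout the cell cycle.

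The measurements came from wild-type A549, a long-established human cell line of lung carcinoma epithelium. The control group was transfected with 1 µg of the empty plasmid pCMV6-Entry (n = 2 libraries), and the other with 1 µg of the SAMD9-Myc-DDK plasmid, which encodes tagged SAMD9 (n = 2 libraries). All cells were collected 24 hr after transfection, so both groups share the transfection itself and differ in the insert. SAMD9 is an interferon-inducible antiviral protein, and its counts were 444 and 400 in the control libraries but 220123 and 184350 after transfection of the SAMD9 plasmid. Gene counts do not separate plasmid from endogenous transcripts.

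Library totals ranged from 29301854 to 39670083 counts. The labels do not say that replicates were separate cultures, and p-values therefore reflect no more than the variation among these 4 libraries, part or all of which may be technical. The epithelial and A549 markers summed to between 14420 and 15619 CPM (counts scaled to the library total) in the 4 libraries, with KRT8, KRT18 and KRT7 abundant, whereas the epithelial markers KRT19 (5 to 10 counts) and EPCAM (159 to 216 counts) were low. Of the 9 of these markers tested, 3 were called higher with SAMD9 and 0 lower in the test described below: CDH1, the epithelial cadherin (log2 fold change 0.89, SE 0.08, edgeR adjusted p = 5.0e-09), KRT8 (0.40, SE 0.05, adjusted p = 9.7e-07) and ALDH1A1 (0.14, SE 0.04, adjusted p = 0.018). With total-count scaling CDH1 and KRT8 were higher, 3 others were lower, and ALDH1A1 was at -0.05 (adjusted p = 0.40). Among all genes tested, 15.3% were called higher and 12.2% lower in the test described below, and 9.96% and 28.5% with total-count scaling. Leukocyte and endothelial markers summed to at most 3.07 and 1.64 CPM. The 6 fibroblast markers summed to 1.71 and 3.02 CPM with empty vector and 5.85 and 5.89 CPM with SAMD9, mostly from COL1A1. Of the 6, 2 had enough counts to be tested: COL1A1 was called higher (log2 fold change 1.60, SE 0.25, edgeR adjusted p = 3.6e-05), and COL3A1, at 3 and 4 counts against 18 and 10, was not (1.92, SE 0.87, adjusted p = 0.11), while DCN had 0 counts in every library. The part of these genes in the results below was not tested.

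Promoter sequences are shown first because most mitotic kinesin genes moved together in the comparison that follows. Promoters of genes expressed in G2 and M phase often hold a cell cycle homology region, searched here as TTTGAA or TTCGAA on both strands, and a CCAAT box, which binds NF-Y. RefSeq sequences (GRCh38.p14, 250 bases before to 50 after a start site) matched 34 of the 42 genes, in 43 promoters; the start sites are RefSeq's, and gene spans taken from the deposited files can begin elsewhere. The following are the 140 bases before the start site, 5′ to 3′ on the gene's strand, with matches on either strand in capitals: these hexamers, the CCAAT box, or the core of the interferon-stimulated response element (GAAA, any 2 bases and a second GAAA). They cover 7 of the 9 mitotic kinesins, with the abundant transport kinesins KIF5B and KIF1C for contrast.
KIF14 (chr1:200620752-200620891, minus strand): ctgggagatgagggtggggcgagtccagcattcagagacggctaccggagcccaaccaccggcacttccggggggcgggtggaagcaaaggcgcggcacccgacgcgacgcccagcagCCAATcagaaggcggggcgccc
KIF23 (chr15:69414209-69414348, plus strand): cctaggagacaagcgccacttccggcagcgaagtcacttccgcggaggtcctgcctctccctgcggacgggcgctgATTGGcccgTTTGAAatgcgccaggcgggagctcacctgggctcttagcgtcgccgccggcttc
KIF18A (chr11:28108157-28108296, minus strand): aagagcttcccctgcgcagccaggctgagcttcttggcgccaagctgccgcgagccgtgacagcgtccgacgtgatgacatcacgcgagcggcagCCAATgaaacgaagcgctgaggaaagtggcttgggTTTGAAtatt
KIF11 (chr10:92592990-92593129, plus strand): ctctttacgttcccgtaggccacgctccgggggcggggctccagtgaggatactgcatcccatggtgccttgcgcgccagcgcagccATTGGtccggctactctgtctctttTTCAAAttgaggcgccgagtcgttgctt
KIF4A (chrX:70289964-70290103, plus strand): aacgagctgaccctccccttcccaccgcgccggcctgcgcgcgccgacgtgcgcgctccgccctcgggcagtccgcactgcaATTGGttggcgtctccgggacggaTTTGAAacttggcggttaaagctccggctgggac
KIF20A (chr5:138178972-138179111, plus strand): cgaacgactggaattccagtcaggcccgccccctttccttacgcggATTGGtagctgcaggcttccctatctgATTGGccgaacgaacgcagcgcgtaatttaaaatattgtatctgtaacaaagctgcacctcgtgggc
KIFC1 (chr6:33391683-33391822, plus strand): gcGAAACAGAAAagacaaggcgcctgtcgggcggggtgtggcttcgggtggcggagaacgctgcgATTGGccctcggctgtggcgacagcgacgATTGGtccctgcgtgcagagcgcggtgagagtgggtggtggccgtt
KIF5B (chr10:32056426-32056565, minus strand): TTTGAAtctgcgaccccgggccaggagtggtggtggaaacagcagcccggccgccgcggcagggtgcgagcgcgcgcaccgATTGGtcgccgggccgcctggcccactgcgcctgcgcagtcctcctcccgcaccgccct
KIF1C (chr17:4997810-4997949, plus strand): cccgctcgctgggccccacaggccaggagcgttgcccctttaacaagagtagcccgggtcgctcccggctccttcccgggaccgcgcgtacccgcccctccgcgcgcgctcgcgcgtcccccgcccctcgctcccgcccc

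Over the full windows of 300 bases, TTTGAA occurred on either strand in 7 of 9 mitotic kinesin promoters, 3 of 7 promoters of other division kinesins, 1 of 16 transport promoters and 0 of 11 of the remaining promoters, against 15.2% of all 35116 promoters. The variant TTCGAA was in 2 of the 7 promoters of other division kinesins, which are overlapping windows of KIF22 that hold the same site, and in 1.45% of all promoters. CCAAT was in 8 of 9 mitotic and 5 of 16 transport promoters, against 34.6% of all. Both a TTTGAA or TTCGAA and a CCAAT were in 7 of 9 mitotic and 1 of 16 transport promoters, against 6.38% of all. None of these motifs shares a base with another in the windows printed. The 16 transport promoters came from 11 of the 15 genes and the 11 remaining promoters from 8 of 12. No promoter matched KIF13B, KIF5A, KIFC2 and KIFC3 among transport kinesins, or KIF19, KIF21B, KIF26B and KIF27 among the rest.

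In KIF23 the inverted CCAAT began 64 bases and TTTGAA 55 bases before the start site, in KIF4A 58 and 34 bases, in KIF11 53 and 28 bases, and in KIF18A CCAAT began 45 and TTTGAA 10 bases before it. The matches of KIF14, KIF20B and KIFC1 to TTTGAA lay after the start site and are not in the stretches printed. KIF20A had 2 inverted CCAAT boxes and no TTTGAA in its window, and KIF2C had none of these letters. The core of the interferon-stimulated response element was found in 2 of the 43 kinesin promoters, those of KIFC1 and KIF1A, and in 3.57% of all promoters. These matches describe the letters only and say nothing of which factors bound there.

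With SAMD9, 8 of the 9 mitotic kinesins fell and 0 rose. Among the 8, KIF14 fell by 42.7% and KIF4A, with the smallest change, fell by 15.6%. Among 15 transport kinesins 5 fell, 1 rose and 9 did not pass the test. Of these 9, KIF1A, KIF5A, KIF5C and KIF17 had at most 147 counts in a library and SEs of 0.24 to 0.32. A change the size of the mitotic kinesins' median could be missed in them. Of the other division kinesins tested, 3 of 5 fell, and of the remaining kinesins 2 of 10 fell and 2 rose. In all, 39 of the 42 genes had enough counts to be tested, of which 18 fell and 3 rose. The threshold throughout was an adjusted p of 0.05 (Benjamini-Hochberg) in edgeR's quasi-likelihood test across the 19814 genes tested. The background for these counts is 12.2% of all genes called lower and 15.3% called higher. In the 4 groups, in the order given, the share called lower was 88.9%, 33.3%, 60% and 20% of the genes tested. Both SAMD9 libraries lay below both empty vector libraries in 8 of 9 mitotic and 7 of 15 transport kinesins, against 30.9% of all genes tested, and above them in 0 and 5, against 31.1%.

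The median log2 fold change was -0.40 for mitotic kinesins, -0.30 for other division kinesins, -0.08 for transport kinesins and 0.02 for the rest, beside -0.01 for all genes tested. These values use TMM scaling, which sets the bulk of genes near 0. Scaling by total counts moved the median of all genes by -0.19 on the log2 scale, and 22 kinesins were then lower and 1 higher, with 9 of 9 mitotic and 8 of 15 transport kinesins lower, against 28.5% of all genes called lower and 9.96% higher under that scaling. With TMM and without SAMD9 replicate 1 or 2, the median was -0.395 or -0.406 for mitotic kinesins. For transport kinesins it was -0.17 or -0.0408, and for all genes tested -0.0129 or -0.00728. Each of these fits had 1 SAMD9 library. RNA of whole cultures cannot tell fewer cells in mitosis from less of these mRNAs per cell.

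**Figure D1:**
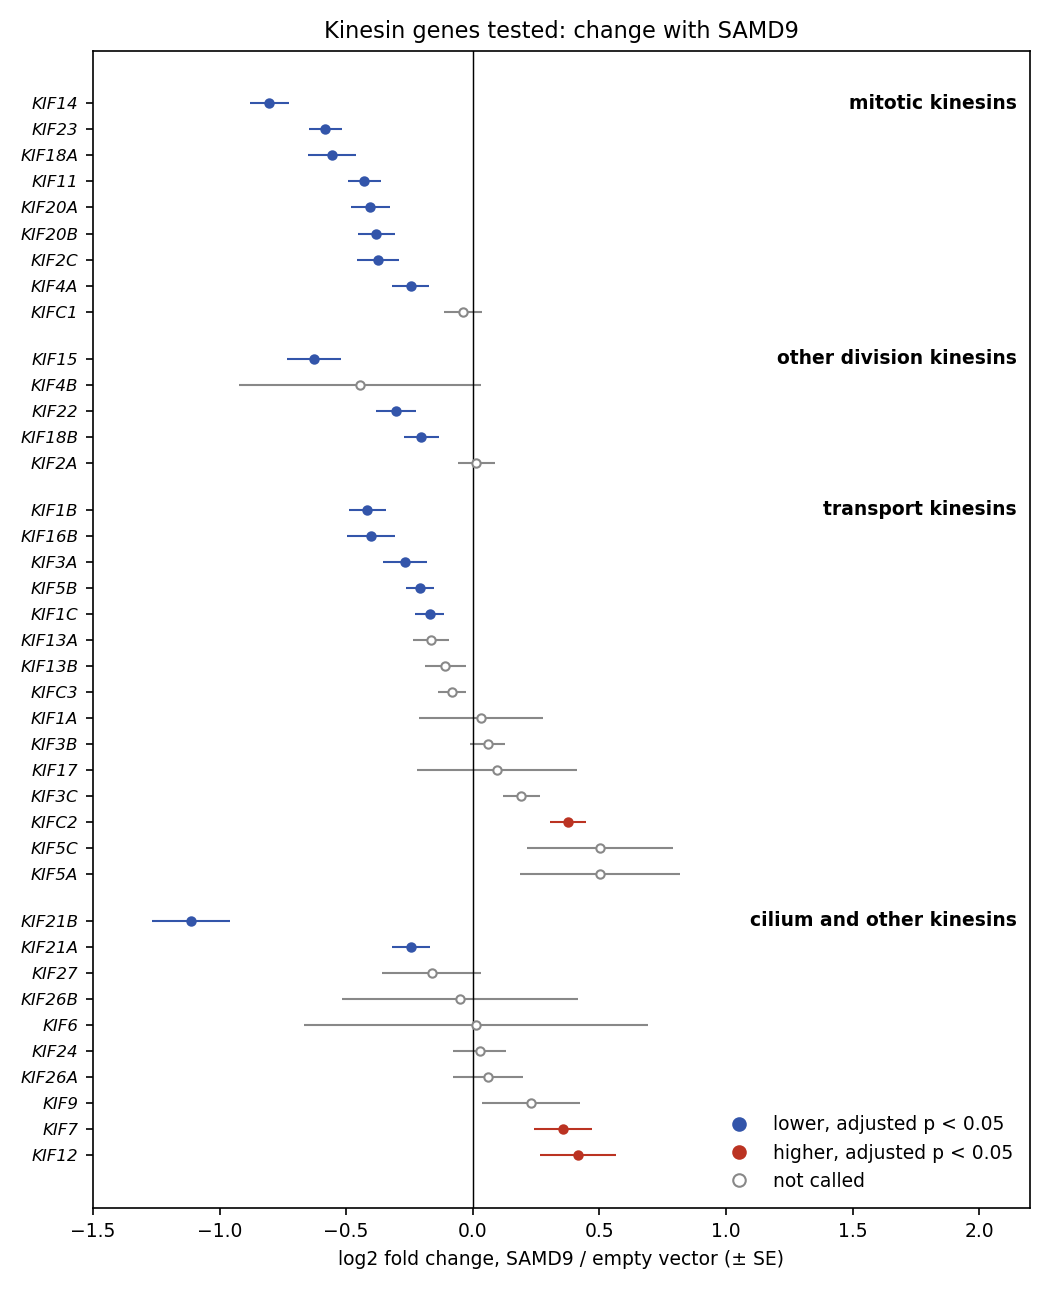
Log2 fold change (SAMD9 over empty vector, x axis) with its standard error for the 39 kinesin genes tested, by group. Filled points passed an adjusted p of 0.05: 8 of 9 mitotic kinesins lie to the left of 0, while the 15 transport kinesins lie on both sides.

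Within each library, the ratio of mitotic to transport kinesin counts and the shares of kinesin counts do not depend on the scaling. The 9 mitotic kinesins had 0.453 and 0.474 counts per transport kinesin count in the empty vector libraries, against 0.375 and 0.379 after SAMD9 transfection. Both ratios with SAMD9 were below both with empty vector, by more than the gap between replicates. Mitotic kinesins made up 26.6% and 27.2% of all kinesin counts in the controls, against 23.0% and 23.2% with SAMD9, and transport kinesins 58.7% and 57.4% against 61.4% and 61.2%. All 42 genes together held 0.323% and 0.325% of the library's counts in the controls, against 0.249% and 0.244% with SAMD9. Unlike the ratio, this share of the whole library is scaled by total counts, which moved the median of all genes by -0.19 on the log2 scale. All of these sums are weighted to the abundant genes, and no test was made on them.

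**Figure D2:**
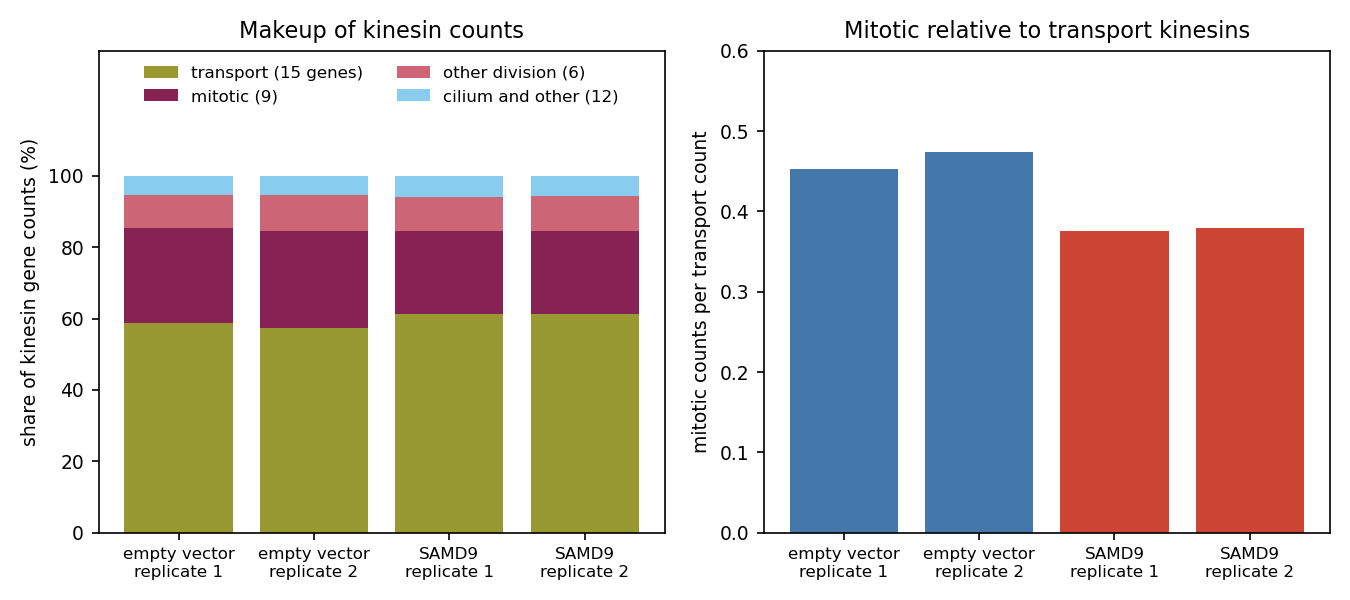
Left, share of each group in the counts of the 42 kinesin genes (%) in each library. Right, counts of the 9 mitotic kinesins per count of the 15 transport kinesins, which lay at 0.453 and 0.474 with empty vector and at 0.375 and 0.379 with SAMD9. Each bar is 1 library, so no error is drawn.

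The motors of cytokinesis included the largest fall among mitotic kinesins. KIF14 (ENSG00000118193, chromosome 1, 200551497 to 200620734, GRCh38), a kinesin-3 that acts with citron kinase in the final separation of daughter cells, was at 82.6 and 92.0 TMM-normalised CPM with empty vector and 49.3 and 50.9 with SAMD9. The groups were far apart relative to their replicates, and the gene fell by 42.7% (log2 fold change -0.80, SE 0.08, edgeR adjusted p = 2.5e-08). KIF23 (chromosome 15, 69414246 to 69448427), the motor subunit of the centralspindlin complex that bundles the spindle midzone, was at 159.8 and 158.0 CPM with empty vector and 105.6 and 106.7 with SAMD9. It had the highest level of the 9 in CPM in the empty vector libraries, and it fell by 33.2% (-0.58, SE 0.06, adjusted p = 1.9e-07).

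KIF20A (chromosome 5, 138178719 to 138187715), which brings the chromosomal passenger complex to the midzone, was at 78.1 and 87.3 CPM with empty vector and 62.3 and 62.8 with SAMD9. Its log2 fold change was -0.40 (SE 0.08, adjusted p = 0.00027). It shares 132 exonic bases with BRD8 and 68 with CDC23, both on the opposite strand, which is 3.34% and 1.72% of its exonic length, and the strand setting of the counting is not given. KIF20B (chromosome 10, 89701610 to 89774939), its relative in late cytokinesis, was at 81.5 and 79.5 CPM with empty vector against 60.5 and 63.1 with SAMD9 (-0.38, SE 0.07, adjusted p = 0.00032). In all 4 cytokinesis motors both SAMD9 libraries thus lay below both empty vector libraries, as they did in 30.9% of all genes tested.

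Of the motors that build the spindle, KIF11 (chromosome 10, 92593286 to 92655395), the kinesin-5 that pushes the poles apart by sliding antiparallel microtubules, was at 138.7 and 148.4 CPM with empty vector and 106.3 and 107.1 with SAMD9. It fell by 25.7% (-0.43, SE 0.07, adjusted p = 2.6e-05). KIF15 (chromosome 3, 44761717 to 44873376), the kinesin-12 that can take over part of this work and is counted among the other division kinesins, was at 27.4 and 27.6 CPM with empty vector and 17.3 and 18.4 with SAMD9. Its log2 fold change was -0.63 (SE 0.11, adjusted p = 8.9e-05). It held TTTGAA, beginning 35 bases before its start site, without a CCAAT in the window.

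KIFC1 (chromosome 6, 33391536 to 33409924) was the mitotic kinesin that did not pass the test. It is a minus-end directed motor that focuses spindle poles and clusters extra centrosomes. Its level was 69.0 and 74.9 CPM with empty vector and 69.0 and 71.2 with SAMD9, so the groups overlapped (log2 fold change -0.04, SE 0.07, adjusted p = 0.76). Under total-count scaling it was called lower (-0.23, adjusted p = 0.018), and without empty vector replicate 2 its fold change was 0.03 (adjusted p = 0.88).

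Among the mitotic kinesins, those that act on chromosomes and microtubule ends all fell. KIF18A (chromosome 11, 28020620 to 28108308), a kinesin-8 that damps chromosome oscillation at the metaphase plate, was at 49.8 and 43.7 CPM with empty vector and 33.9 and 29.5 with SAMD9 (-0.56, SE 0.10, adjusted p = 0.00010). KIF2C (chromosome 1, 44739818 to 44767767), a microtubule depolymerase that corrects faulty kinetochore attachments, was at 52.8 and 53.1 CPM against 39.8 and 41.9 (-0.37, SE 0.08, adjusted p = 0.0013). KIF4A (chromosome X, 70290090 to 70420832), a chromokinesin that works with PRC1 on the midzone, was at 92.3 and 93.7 CPM with empty vector and 82.6 and 74.2 with SAMD9.

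KIF4A had the smallest of the 8 called falls (-0.25, SE 0.07, adjusted p = 0.014), and its SAMD9 libraries were farther apart than its empty vector libraries. Without SAMD9 replicate 2 it was not called (-0.16, adjusted p = 0.34). Its intronless copy KIF4B shares 27.7% of its transcript 31-mers with KIF4A and had 25 and 51 counts in the control libraries against 30 and 26 with SAMD9, so KIF4B's level is uncertain (-0.45, SE 0.48, adjusted p = 0.55).

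The other division kinesins were mixed. KIF22, a chromokinesin that pushes chromosome arms away from the poles, was at 74.1 and 85.6 CPM with empty vector and 65.2 and 64.4 with SAMD9 (-0.30, SE 0.08, adjusted p = 0.0056). KIF18B, which shortens astral microtubules at their growing ends, was at 104.3 and 113.9 CPM against 94.7 and 94.7 (-0.20, SE 0.07, adjusted p = 0.032). KIF22 was not called without empty vector replicate 2 (adjusted p = 0.085) or without SAMD9 replicate 2 (0.054), and KIF18B not when any of empty vector replicate 2 (0.20), SAMD9 replicate 1 (0.19) and SAMD9 replicate 2 (0.21) was left out.

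KIF2A, a depolymerase active at spindle poles and outside mitosis, had overlapping groups, at 74.5 and 79.5 CPM with empty vector and 77.3 and 78.4 with SAMD9 (0.01, SE 0.07, adjusted p = 0.92). This value changed sign under total-count scaling (-0.17, adjusted p = 0.060). It shares 428 exonic bases with IPO11 on the same strand, 8.97% of its exonic length. KIF2B, a depolymerase of the same family, had 0 counts in every library.

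**Figure D3:**
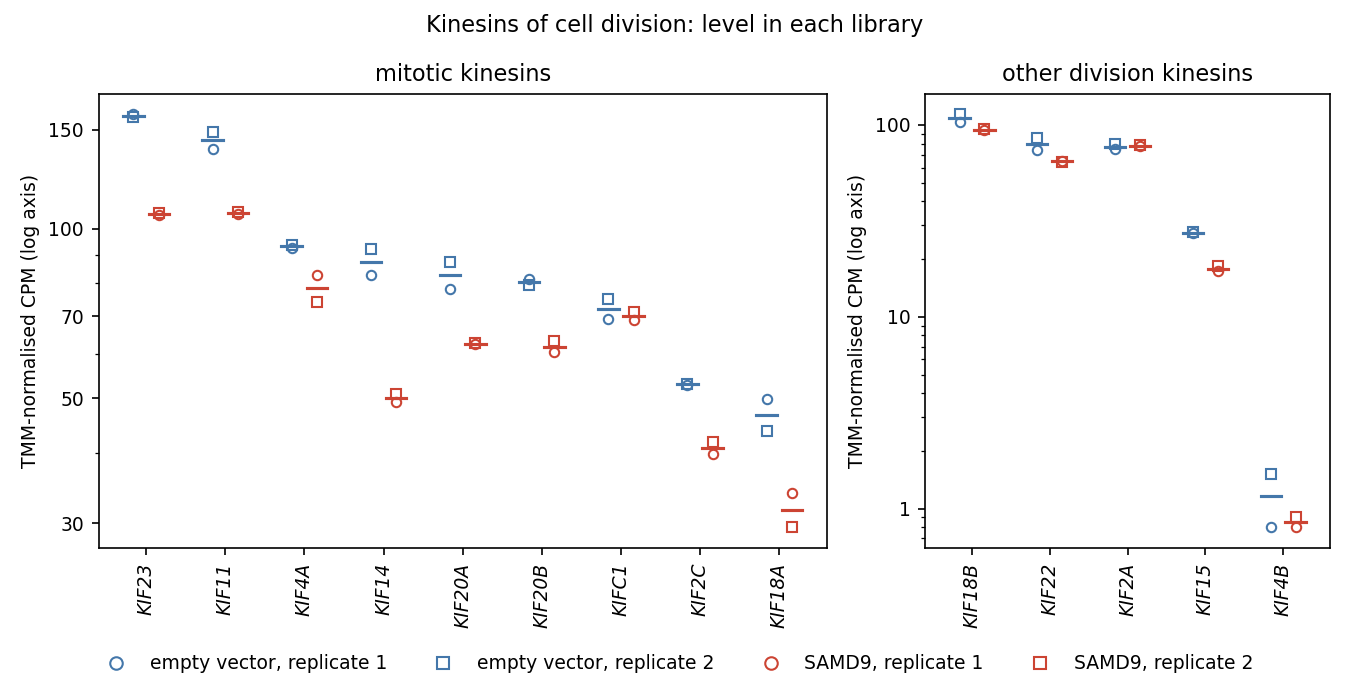
TMM-normalised CPM (log axis) of the 9 mitotic and 5 tested other division kinesins in each library. Symbols are single libraries and short lines group means of n = 2; the SAMD9 points lie below the empty vector points for 8 of the 9 mitotic genes, and those of KIFC1 overlap.

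Genes of proteins that work with mitotic kinesins were examined beside the motors. Of 24 partners and regulators, 19 fell (79.2%), 0 rose and 5 did not pass, against 12.2% of all genes called lower and 15.3% higher. Their median log2 fold change was -0.32, beside -0.01 for all genes. PLK1, the mitotic kinase that phosphorylates KIF20A, was at 189.4 and 206.2 CPM with empty vector and 129.4 and 135.04 with SAMD9 (-0.58, SE 0.06, adjusted p = 2.6e-07). CENPE, a kinesin that moves chromosomes to the plate, was at 85.7 and 87.2 CPM against 56.4 and 57.4 (-0.60, SE 0.07, adjusted p = 7.4e-07). AURKA, the spindle pole kinase, was at 102.9 and 119.5 CPM against 73.4 and 69.1 (-0.64, SE 0.08, adjusted p = 8.0e-07).

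Among the partners that fell were direct partners of 3 of the motors, named here after their values were seen. They were CIT, the citron kinase that KIF14 binds (-0.42, SE 0.08, adjusted p = 0.00019), RACGAP1, the other subunit of centralspindlin beside KIF23 (-0.32, SE 0.07, adjusted p = 0.00079), and PRC1, the midzone bundler that binds KIF4A (-0.21, SE 0.06, adjusted p = 0.012). FOXM1 and MYBL2, transcription factors of G2 and M phase genes, were among the 5 that did not pass, with log2 fold changes of 0.01 (SE 0.06, adjusted p = 0.94) and -0.02 (SE 0.06, adjusted p = 0.88), also named after their values were seen. The rest of the 5 were AURKB (-0.09, SE 0.08, edgeR adjusted p = 0.45), ECT2 (-0.03, SE 0.06, adjusted p = 0.75) and NUSAP1 (0.004, SE 0.07, adjusted p = 0.98). Under total-count scaling all 24 were lower, against 28.5% of all genes called lower and 9.96% higher under that scaling.

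Transport kinesins held the most abundant motors. Per kilobase of the listed exons, the TMM-normalised RPKM with empty vector was 77.7 and 74.2 for KIF5B, 46.3 and 46.7 for KIFC3 and 43.7 and 44.6 for KIF1C, so that the last 2 differed little. KIF11 followed at 28.5 and 30.5, the highest of the mitotic kinesins on this scale, and KIF23 at 25.1 and 24.8. The motors best known from neurons were far lower, with KIF1A, KIF5A, KIF5C and KIF17 between 0.225 and 0.450 RPKM in the empty vector libraries.

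KIF5B (chromosome 10, 32009010 to 32056431), the widely expressed heavy chain of conventional kinesin-1, was at 456.8 and 436.1 CPM with empty vector and 386.0 and 386.2 with SAMD9 (-0.21, SE 0.06, adjusted p = 0.0066). KIF1B (chromosome 1, 10210805 to 10381603), a carrier of mitochondria and of synaptic vesicle precursors, was at 119.4 and 105.1 CPM with empty vector and 85.1 and 83.1 with SAMD9. With the largest called change among transport kinesins, it fell by 25.1% (-0.42, SE 0.07, adjusted p = 0.00012). KIF1C (chromosome 17, 4997948 to 5028401), of the same family, was at 375.1 and 382.7 CPM against 339.1 and 334.3 (-0.17, SE 0.06, adjusted p = 0.026).

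KIF16B (chromosome 20, 16272104 to 16573433), a motor of early endosomes, was at 62.9 and 50.6 CPM with empty vector and 41.4 and 44.4 with SAMD9. The empty vector libraries were wide apart but did not reach the SAMD9 libraries (-0.40, SE 0.09, adjusted p = 0.0024). KIF3A (chromosome 5, 132692628 to 132737638), a subunit of the kinesin-2 that drives transport into cilia, was at 43.9 and 42.0 CPM against 36.2 and 35.1 (-0.27, SE 0.09, adjusted p = 0.024). Of these 5 falls, that of KIF1B was called in all 10 alternatives tried. KIF16B was not called without empty vector replicate 1 (adjusted p = 0.059), nor were KIF5B, KIF1C and KIF3A without SAMD9 replicate 1 (0.098, 0.18 and 0.11) or SAMD9 replicate 2 (0.11, 0.28 and 0.21), and KIF3A also not without empty vector replicate 1 (0.092).

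KIFC2, a minus-end directed motor first described in neurons, was the transport kinesin that rose. It was at 62.8 and 63.3 CPM with empty vector and 82.0 and 81.7 with SAMD9, higher by 29.9% (log2 fold change 0.38, SE 0.07, adjusted p = 0.00030), and its replicates differed by far less than the groups. It was called higher in all 10 alternatives, at 0.19 (adjusted p = 0.042) with total-count scaling. KIFC2 shares 791 exonic bases, 17.8% of its exonic length, with FOXH1 on the opposite strand, which had 12 and 22 counts in the control libraries against 41 and 30 with SAMD9, beside 1964 and 2118 and then 3059 and 2340 counts for KIFC2.

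Of the transport kinesins that did not pass, KIFC3, a minus-end directed motor of apical transport in epithelial cells, was at 349.5 and 353.0 CPM with empty vector and 336.4 and 327.8 with SAMD9 (-0.08, SE 0.06, adjusted p = 0.33). KIF3B, the partner of KIF3A in kinesin-2, was at 89.6 and 90.3 CPM against 91.1 and 96.3 (0.06, SE 0.07, adjusted p = 0.59), and at -0.13 (adjusted p = 0.15) under total-count scaling. The paired subunits thus differed in call, but the difference between them was not tested.

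KIF13A, which carries recycling endosomes, was at 84.8 and 90.5 CPM against 79.7 and 76.5 (-0.17, SE 0.07, adjusted p = 0.090). Without empty vector replicate 1 it was called lower (-0.21, adjusted p = 0.032). KIF13B, of the same family, was at -0.11 on the log2 scale (SE 0.08, adjusted p = 0.37). KIF13A, KIFC3 and KIF13B were called lower under total-count scaling (adjusted p = 0.00038, 0.00053 and 0.0060). KIF3C missed the threshold from the other side, at 66.1 and 66.3 CPM against 77.4 and 73.8 (0.19, SE 0.07, adjusted p = 0.054). It was called higher with the CPM filter (adjusted p = 0.037), and under total-count scaling its log2 fold change was 0.0038 (adjusted p = 0.98). The neuronal motors KIF5A and KIF5C had 53 to 112 counts per library and log2 fold changes of 0.50 (SE 0.32) and 0.50 (SE 0.29), and KIF17 (0.10, SE 0.32) and KIF1A (0.03, SE 0.24) were close to 0 with wide errors.

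**Figure D4:**
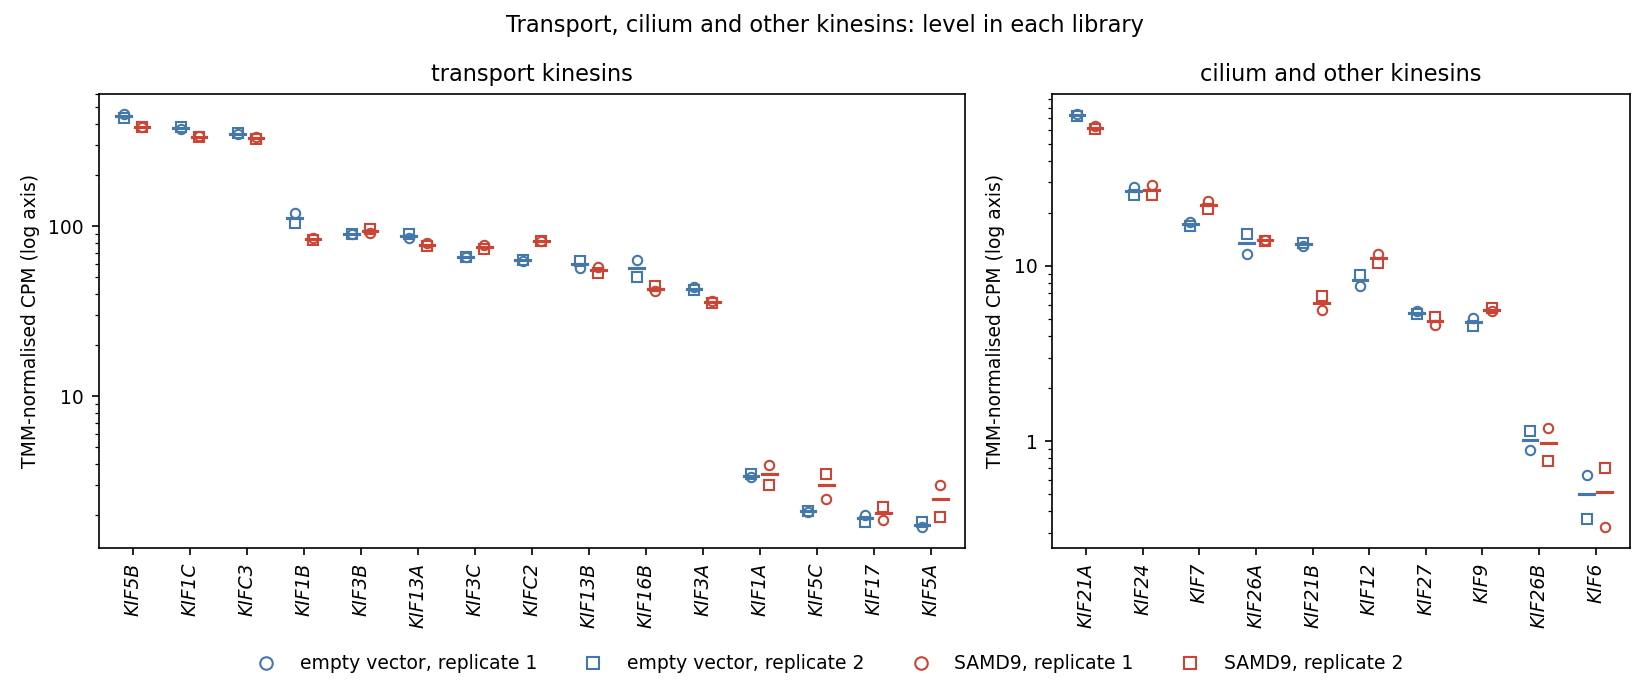
TMM-normalised CPM (log axis) of 15 transport kinesins and 10 tested kinesins of the cilium or other function in each library. Symbols are single libraries and short lines group means of n = 2; most pairs of groups are close, and KIF21B shows the widest gap among the genes above 10 CPM with empty vector.

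The largest change of all kinesins was in KIF21B (chromosome 1, 200969390 to 201023700), a motor that pauses microtubule growth and is best known from neurons and T cells. It had 409 and 451 counts in the control libraries against 208 and 193 with SAMD9, or 13.1 and 13.5 against 5.58 and 6.74 CPM. It fell by 53.8% (log2 fold change -1.11, SE 0.15, adjusted p = 5.7e-06) and was called lower in all 10 alternatives. Its relative KIF21A (chromosome 12, 39293228 to 39443390), which limits microtubule growth at the cell cortex, was at 73.6 and 72.1 CPM against 62.6 and 60.4 (-0.24, SE 0.07, adjusted p = 0.016), and was not called without SAMD9 replicate 1 (adjusted p = 0.082) or SAMD9 replicate 2 (0.21).

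Among ciliary and less studied kinesins 2 of 10 tested rose (20%), near the 15.3% of all genes called higher. KIF7 (chromosome 15, 89608789 to 89655451), which organises the tip of the primary cilium for Hedgehog signalling, was at 17.9 and 16.9 CPM with empty vector and 23.4 and 21.1 with SAMD9 (0.36, SE 0.11, adjusted p = 0.022). It shares 589 exonic bases, 11.8% of its exonic length, with TICRR on the opposite strand. TICRR had 2157 and 2728 counts in the control libraries against 2061 and 1697 with SAMD9. KIF7 itself had 560 and 566 against 873 and 604, and the strand setting of the counting is not given. KIF12 (chromosome 9, 114086126 to 114099227), a kinesin of kidney and liver epithelium, was at 7.64 and 8.93 CPM against 11.6 and 10.4 (0.42, SE 0.15, adjusted p = 0.045).

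Both rises were lost in several alternatives. Under total-count scaling KIF7 was at 0.17 (adjusted p = 0.27) and KIF12 at 0.23 (0.26). KIF7 was also not called without empty vector replicate 2 (adjusted p = 0.071) or SAMD9 replicate 1 (0.23), and KIF12 not with DESeq2 (0.12), without a filter (0.070), or when any of empty vector replicate 1 (0.22), SAMD9 replicate 1 (0.26) and SAMD9 replicate 2 (0.055) was left out.

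KIF24, which holds back cilium growth at the mother centriole, had overlapping groups, at 28.2 and 25.4 CPM against 29.02 and 25.5 (0.03, SE 0.11, adjusted p = 0.90). KIF26A, which lacks motor activity, also overlapped, at 11.7 and 15.2 CPM against 14.1 and 13.9 (0.06, SE 0.14, adjusted p = 0.81). KIF9, a motor of motile cilia, was at 5.05 and 4.51 CPM against 5.50 and 5.73 (0.23, SE 0.19, adjusted p = 0.43). It shares 870 exonic bases with KIF9-AS1 (14.9% of its exonic length) and 178 with KLHL18 (3.04%), both on the opposite strand. KLHL18 had 808 to 1062 counts per library, beside 151 to 205 for KIF9. KIF27 had a log2 fold change of -0.16 (SE 0.20), with 38.0% of its transcript 31-mers shared with other genes, and KIF26B (-0.05, SE 0.47) and KIF6 (0.01, SE 0.68) were at 12 to 44 counts per library. KIF19 (0, 0, 0 and 2 counts) and KIF25 (0, 1, 0 and 2 counts), with empty vector first, were too low to test.

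Of 22 light chains and adaptors that couple transport kinesins to cargo, 5 rose (22.7%), 3 fell (13.6%) and 14 did not pass, with a median log2 fold change of 0.09. These shares lie near those of all genes tested, 15.3% higher and 12.2% lower. MAPK8IP2, a scaffold that links kinesin-1 to JNK kinases, was at 8.57 and 9.92 CPM with empty vector and 32.1 and 29.5 with SAMD9 (1.74, SE 0.12, adjusted p = 9.3e-11), and SPAG9, a scaffold of the same kind, rose by 0.46 (SE 0.07, adjusted p = 1.3e-05). TRAK1, which ties kinesin-1 to mitochondria, was at 74.9 and 72.0 CPM against 56.8 and 47.4 (-0.49, SE 0.08, adjusted p = 9.9e-05). The other 2 falls were TRAK2 (-0.48, SE 0.10, adjusted p = 0.0012) and MAPK8IP3 (-0.41, SE 0.07, adjusted p = 0.00013), named after their values were seen. None of the 4 kinesin light chain genes KLC1 to KLC4, also named after their values were seen, was called, with log2 fold changes from -0.25 to 0.20. Under total-count scaling 2 of the 22 rose and 7 fell, where 9.96% of all genes were called higher and 28.5% lower.

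Of 28 tested genes of dynein, the motor that runs towards the minus end, its cofactor dynactin and their adaptors, 6 rose (21.4%) and 3 fell (10.7%), with a median of 0.06, again near the 15.3% and 12.2% of all genes. The light chain gene DYNLT1 was at 20.5 and 19.6 CPM with empty vector and 39.6 and 39.8 with SAMD9 (0.99, SE 0.10, adjusted p = 3.3e-08). The heavy chain gene DYNC1H1 was at 968 and 953 CPM against 1324 and 1278 (0.44, SE 0.05, adjusted p = 4.1e-07), and CAPZA1, an actin-capping protein that also ends the dynactin filament, rose by 0.31 (SE 0.06, adjusted p = 0.00075). Under total-count scaling 2 rose and 8 fell, where 9.96% of all genes were called higher and 28.5% lower.

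Of 16 tubulin genes, which encode the track, 5 rose (31.3%) and 3 fell (18.8%), against 15.3% and 12.2% of all genes, with a median of 0.13. TUBB2A and TUBB2B rose by 0.75 (SE 0.09, adjusted p = 4.8e-07) and 0.72 (SE 0.13, adjusted p = 0.00022), and TUBA4A was at 241.1 and 273.4 CPM against 202.0 and 204.1 (-0.34, SE 0.06, adjusted p = 0.00031). Tubulin paralogs share sequence, so how their counts divide is uncertain. Under total-count scaling 2 tubulin genes rose and 3 fell, where 9.96% of all genes were called higher and 28.5% lower.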

How the data were processed

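The authors deposited, for each library, unnormalised counts of every gene together with CPM and RPKM columns. The deposited CPM are the counts over their sum, and the deposited RPKM divide CPM by the listed exon length in kilobases; neither was tested, and the CPM and RPKM printed were recomputed with TMM factors. STAR 2.5.1a, featureCounts 1.4.6-p5 (Subread), bcl2fastq and GRCh38 are named by the submitters' processing notes. Their parameters, the annotation release and whether strand was used: not given in the sources used here.

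For 54836 of 58812 IDs the symbol was that of a gene name table, otherwise of GENCODE 29, which gave the gene types, and coordinates are those of the files. The test was that of edgeR 4.0.16 under R 4.3.3, with filterByExpr (minimum count 10, minimum total 15), TMM, glmQLFit and glmQLFTest with no covariate, adjusted over 19814 genes. SE is the absolute log2 fold change over the square root of F. The script was checked on simulated counts. With 2 libraries against 2, the smallest two-sided p of an exact permutation test for 1 gene is 0.333, and calls rest on the spread that edgeR shares across genes. Replicates differed by more than sampling noise (chi-square per degree of freedom 9.35 with empty vector and 5.00 with SAMD9).

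The members and gene lists were chosen with earlier results of these data known. By rule, the genes named are all mitotic kinesins, all called kinesins, the 3 most abundant uncalled kinesins of a group and the 3 lowest p of each other list. The remaining kinesins are named so that every member is accounted for. Other partner, adaptor and marker genes were named after their values were seen. Alternatives were total-count and RLE scaling, DESeq2 1.42.0, no filter, a CPM filter of 1 in 2 libraries, a replicate block and leaving out each library.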

Additional observations from a re-analysis of the deposited data

How the results depend on the processing

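Of 18 kinesins called lower, 10 were called lower in all 10 alternatives (KIF11, KIF14, KIF18A, KIF20A, KIF20B, KIF23, KIF2C, KIF15, KIF1B and KIF21B), and of 3 called higher, 1 (KIFC2). RLE scaling left every kinesin call and direction as it was. With the replicate number as a block 18 kinesins were lower and 3 higher, and 1 uncalled gene changed sign. Same-numbered libraries did not deviate together (correlation 0.01 across genes), so the numbers were not taken as pairs.

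Leaving out 1 library at a time gave 11 to 17 kinesins lower and 1 to 2 higher; 1 to 3 other division kinesins lower; 2 to 5 transport kinesins lower; 0 to 1 of the cilium and other kinesins higher and 1 to 2 lower; 2 to 5 adaptors higher; 1 to 3 dynein and dynactin genes lower; and 2 to 8 tubulins higher and 1 to 2 lower. Over all genes it gave 1466 to 2279 lower, against 2420. With total counts, 1974 genes were higher and 5653 lower (3038 and 2420 with TMM), 1 kinesin was higher, 8 transport kinesins were lower, 0 of the cilium and other kinesins were higher, adaptors numbered 2 higher and 7 lower, dynein genes 2 and 8, and 2 tubulins were higher. The CPM filter gave 2 of 15 transport kinesins higher, beside 2968 of 15586 genes tested. DESeq2 gave 1 of 10 cilium and other kinesins higher, beside 2640 of 19814 genes, and 1 of 28 dynein genes lower, beside 1880. Without a filter 1 of 12 cilium and other kinesins was higher, beside 3000 of 36173 genes. Total-count scaling moved the median of all genes by -0.19 on the log2 scale, and fewer libraries enter when 1 is left out. The cause of the other shifts was not tested.

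Sign changes occurred in 10 kinesins that were not called. With total counts they were KIF24 (-0.161), KIF26A (-0.127), KIF6 (-0.175), KIF2A (-0.174), KIF17 (-0.0924), KIF1A (-0.155) and KIF3B (-0.13), and with the replicate block KIF6 (-0.0136). Without 1 library, the log2 fold change of KIF24 ranged from -0.0696 to 0.122, of KIF26A from -0.112 to 0.267, of KIF26B from -0.398 to 0.221, of KIF6 from -0.617 to 0.49, of KIFC1 from -0.0962 to 0.025, of KIF2A from -0.0298 to 0.0663, of KIF4B from -0.831 to 0.1, of KIF17 from -0.0238 to 0.225 and of KIF1A from -0.18 to 0.215. KIF1A, KIF5A, KIF5C, KIF17, KIF26B, KIF4B and KIF6, all at no more than 147 counts in a library, had SEs from 0.24 to 0.68, so a change the size of the mitotic kinesins' median was not detectable at this depth.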
